A study of Panax notoginseng with 12 samples.

Results

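Roots of Panax notoginseng that received nitrate were compared with roots that did not, whatever their ammonium supply. The loci described are those whose expression in all 6 libraries with nitrate lay on one side of all 6 libraries without it. Expression is given as FPKM (fragments scaled to transcript length and to the mapped fragments of the library), as deposited, and differences are on the log2(FPKM + 1) scale. Of the 146330 assembled loci in the table, 22592 were tested, which are those averaging 5 FPKM or more in 1 or more of the 4 groups. In 1478 of these the 2 sides did not overlap, with 609 loci higher and 869 lower in roots with nitrate (6.54% of the loci tested, 2.7% higher and 3.85% lower).

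P. notoginseng is a medicinal plant of the ginseng genus. Its hydroponic seedlings were supplied with 15 mM nitrate (15N), with 15 mM ammonium and 15 mM nitrate (15AN), with no nitrogen (CK), or with 15 mM ammonium (15A), and total RNA of the roots was sequenced in 3 libraries per group. The study's methods name seedlings 2 years old, 3 per treatment, harvested on day 3, while the sample labels call the seedlings 3 days old, and both statements cannot hold. The study states that RNA was pooled but does not say whether each library had its own pool, so the p-values measure the spread between these libraries, which may be technical. All seedlings were first kept in a complete nutrient solution with a little ammonium nitrate. The nitrification inhibitor dicyandiamide, which slows the conversion of ammonium to nitrate, was in all treatment solutions. Nitrate was given as its calcium salt, ammonium as its sulfate, and both as ammonium nitrate, so that nitrate and the accompanying salts cannot be told apart.

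Plant roots take up nitrate through transporters of the NRT1/PTR (NPF) and NRT2 families and reduce it to nitrite and then to ammonium with nitrate reductase and nitrite reductase. Ammonium from either source is bound into glutamine and glutamate by glutamine synthetase and glutamate synthase, and asparagine serves as a nitrogen-rich store and transport form. Nitrate also acts as a signal, and roots short of nitrogen draw on stored amino acids and alter sugar use, root growth, and hormone signalling.

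The nitrate difference was fitted with ammonium as a block in limma, and a locus was called at a Benjamini-Hochberg adjusted p under 0.05 with a log2 fold change over 1 in size. The fit called 266 loci higher and 533 lower in roots with nitrate (1.18% and 2.36% of the loci tested, 3.54% in all), where the median of all loci was 0.03. At an unadjusted p under 0.05, 16.3% of all loci tested were higher and 14.4% lower, and these shares are the ones to set beside such counts of the gene lists below. Of the 1478 loci without overlap, 418 were called, 113 higher and 305 lower (0.5% and 1.35%, 1.85% in all). These 418 loci carry the account that follows. They were picked on the same libraries that the fit uses, so that their fold changes and adjusted p describe them and are no separate test. In the same way 216 loci were called without overlap for ammonium, with 117 higher and 99 lower (0.518% and 0.438% of the loci tested, 0.956% in all).

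Across libraries, FPKM summed to 2002096 to 2174581 in 15N, 1776098 to 1800638 in 15AN, 1420310 to 1517711 in CK, and 2042250 to 2593466 in 15A. Lists of root markers gave no called locus in limma, either for endodermis, exodermis, and suberin (24 tested, with 3 higher and 5 lower at an unadjusted p under 0.05) or for root hair and root tip (15 tested, with 2 higher and 3 lower). With 3.54% of all loci called, lists of this size would have few calls in any case. The summed FPKM of the first list was 553 to 611 in 15N and 562 to 580 in 15AN, against 613 to 652 in CK and 634 to 711 in 15A. The library 15A replicate 1 stood far from the other 2 of its group at several of the loci described, and it was below both of them at 52.8% of the 305 lower loci, compared with 33.9% of all loci tested. In pooled root tissue, fewer cells of a type and less RNA per cell cannot be told apart.

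**Figure D1:**
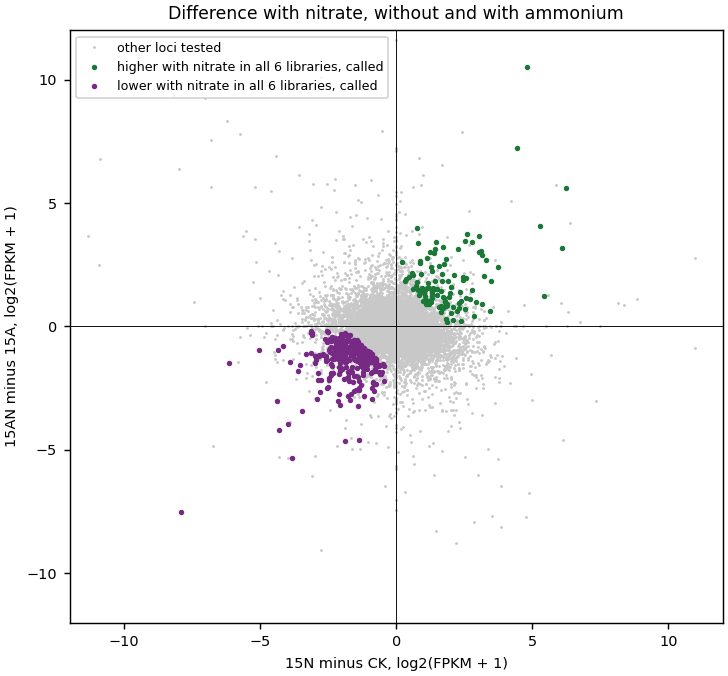
Difference of each tested locus between 15N and CK (x axis) and between 15AN and 15A (y axis), both as log2(FPKM + 1). Each point is 1 locus. The 113 higher loci (green) lie in the upper right and the 305 lower loci (purple) in the lower left, as their choice requires, while the remaining loci tested (grey) lie on all sides.

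Nitrate differences were often not the same without and with ammonium. 15N against CK called 1548 loci higher and 1727 lower (6.85% and 7.64% of the loci tested, 14.5% in all), and 15AN against 15A called 719 higher and 1049 lower (3.18% and 4.64%, 7.83% in all). The 2 comparisons share no library, so the loci called in one can be measured in the other. Of the 1548 loci higher in 15N than in CK, 27.5% were also higher in 15AN than in 15A, compared with 48.1% of all loci tested, and their median difference there was -0.36. Of the 1727 lower loci 47.1% had the same direction, compared with 51.7% of all loci, with a median of 0.04. Calls in the same direction in both comparisons numbered 83 higher and 189 lower loci. These are 5.36% of the loci higher and 10.9% of those lower in 15N than in CK, above the 3.18% and 4.64% of all loci called so in 15AN against 15A. Calls in opposite directions were also more frequent than over all loci, as 246 of the 1548 higher loci (15.9%) were called lower in 15AN than in 15A, compared with 4.64% of all loci, and 154 of the 1727 lower loci (8.92%) were called higher, compared with 3.18%. In the other order, 40.5% of the 719 loci higher in 15AN than in 15A and 42.7% of the 1049 lower ones kept their direction in 15N against CK, where all loci gave 55.7% and 44%. When all libraries were scaled to the same FPKM total, these shares became 40.5%, 28.1%, 23.3%, and 56.4%, in the order given here. The shares of all loci under that scaling were not computed and can differ from those above, so the scaled shares have no comparison here. The interaction, for which 15N minus CK is subtracted from 15AN minus 15A, was called at 5093 loci, with 2315 positive and 2778 negative (10.2% and 12.3%, 22.5% in all).

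Among the 418 loci the direction is the same with and without ammonium, because the choice of the loci fixes it, but the size was not. Of the 113 higher loci, 61 passed the thresholds in both comparisons, 30 only in 15N against CK, and 22 only in 15AN against 15A. The 305 lower loci divided into 156, 111, and 38. The interaction was called at 22.5% of all loci tested, and at 45.5% of all loci called higher and 41.1% of all loci called lower for nitrate. Among the 418 loci it was called at 39 of the higher loci (34.5%) and at 100 of the lower loci (32.8%). At 76 of those 100 lower loci it was positive, so that the loss with nitrate was smaller in the presence of ammonium. Ammonium itself was called higher at 10 and lower at 0 of the 113 higher loci, and higher at 3 and lower at 6 of the 305 lower loci (for ammonium 1.02% of all loci tested were called higher and 1.03% lower, 2.05% in all).

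The higher and the lower loci also differed in what the table says of them. No gene model of the genome annotation was listed for 36.3% of the higher loci and 13.4% of the lower loci, set against 16.6% of all loci tested. It was missing for 44% of all loci called higher and 21.2% of all called lower. Among the 609 higher and 869 lower loci without overlap, called or not, it was missing for 16.1% and 7.59%. Database descriptions were present for 61.9% of the higher and 86.9% of the lower of the 418 loci, compared with 82.7% of all. The shares were 56% and 77.7% of all loci called higher and lower, and 86% and 91.3% of all higher and lower loci without overlap. The 113 higher and 305 lower loci were expressed at similar levels, with a median over all libraries of 10.3 FPKM and 9.91 FPKM. On the scaffolds, the tested loci formed 11313 pairs of neighbours within 50 kb, and in 14 of these both loci were among the 418. The 14 pairs hold 28 of the 274 described loci with such a neighbour (10.2%), where 1.85% of all loci tested are among the 418. Both loci of each of the 14 pairs had the same direction, which 305 lower loci among 418 make likely. In 6 of the 14 pairs the table gives both loci the same coordinates, so their reads may be shared, and the strand of the libraries is not stated.

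The called genes that handle asparagine were lower with nitrate. The list of ammonium uptake and assimilation had 34 tested loci, of which 0 were called higher in limma and 2 lower (5.88% lower, compared with 2.36% of all loci, and 6 and 5 loci, or 17.6% and 14.7%, at an unadjusted p under 0.05). Both lower loci handle asparagine. Asparagine synthetase, which makes asparagine with the amide nitrogen of glutamine, is XLOC_026545 on scaffold11425 (75342 to 79657, minus strand). It had 25.5 to 32.8 FPKM (median 28.7) in the 6 libraries with nitrate, against 61 to 172 FPKM (median 127) in the 6 without. All libraries with nitrate lay below the lowest without, which was 15A replicate 1, and CK was higher than 15A. The fitted difference was -1.97 ± 0.15 (SE, n = 6 libraries per side, limma adjusted p = 2e-05), with -2.35 in 15N against CK and -1.59 in 15AN against 15A.

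L-asparaginase 2, which releases ammonium from asparagine, is XLOC_065997 on scaffold20691 (15829 to 18197, minus strand). Its level was 13.1 to 18.6 FPKM (median 16.1) in roots with nitrate and 54.6 to 76.8 FPKM (median 70.9) in roots without. Here CK and 15A overlapped each other, and the difference was -1.93 in 15N against CK and -2.12 in 15AN against 15A, giving -2.02 ± 0.10 over both (SE, limma adjusted p = 1.3e-06).

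A further list, amino acid breakdown, was drawn up after the values were seen and has 54 tested loci. Of these 2 were called higher and 6 lower (3.7% and 11.1%, set against 1.18% and 2.36% of all loci). At an unadjusted p under 0.05 in limma, 8 were higher and 14 lower (14.8% and 25.9%). Branched-chain amino acid aminotransferase XLOC_109957 moves the amino group of leucine, isoleucine, and valine. It is described as chloroplastic-like, and whether it acts in breakdown or in synthesis was not tested. Its level was 21.9 to 26.9 FPKM (median 25.4) with nitrate, against 59.3 to 105 FPKM (median 100) without. The 2 sides were well apart, and the difference was -1.86 ± 0.14 (SE, limma adjusted p = 1.5e-05). Proline dehydrogenase XLOC_144616, the first enzyme of proline oxidation, fell by 1.08 and the bifunctional lysine breakdown enzyme XLOC_048205 (lysine-ketoglutarate reductase/saccharopine dehydrogenase) also fell by 1.08 on the log2 scale (limma adjusted p = 0.00026 and 0.0013), though with a pseudocount of 5 both were under the fold threshold (-0.69 and -0.87). The beta chain of methylcrotonoyl-CoA carboxylase, XLOC_137347, acts in leucine breakdown and fell by 1.35 (limma adjusted p = 0.0097), with a difference of -2.24 between 15N and CK and of -0.45 between 15AN and 15A, and was under the fold threshold with a pseudocount of 5 (-0.95).

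The 2 higher loci of that list are both described as aminomethyltransferase, a subunit of the glycine cleavage system of mitochondria. XLOC_108415 had 23.9 to 70.6 FPKM (median 50) with nitrate and 4.27 to 15.6 FPKM (median 5.25) without, and XLOC_074711 had 4.63 to 15.6 FPKM and 0 to 2.73 FPKM. Summed over the 6 loci of this description that were above 0, the level was 62.6 to 75.4 FPKM in 15N and 107 to 118 FPKM in 15AN, against 35.2 to 44.2 FPKM in CK and 36.5 to 49.8 FPKM in 15A. The sums with nitrate also lay above all sums without.

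**Figure D2:**
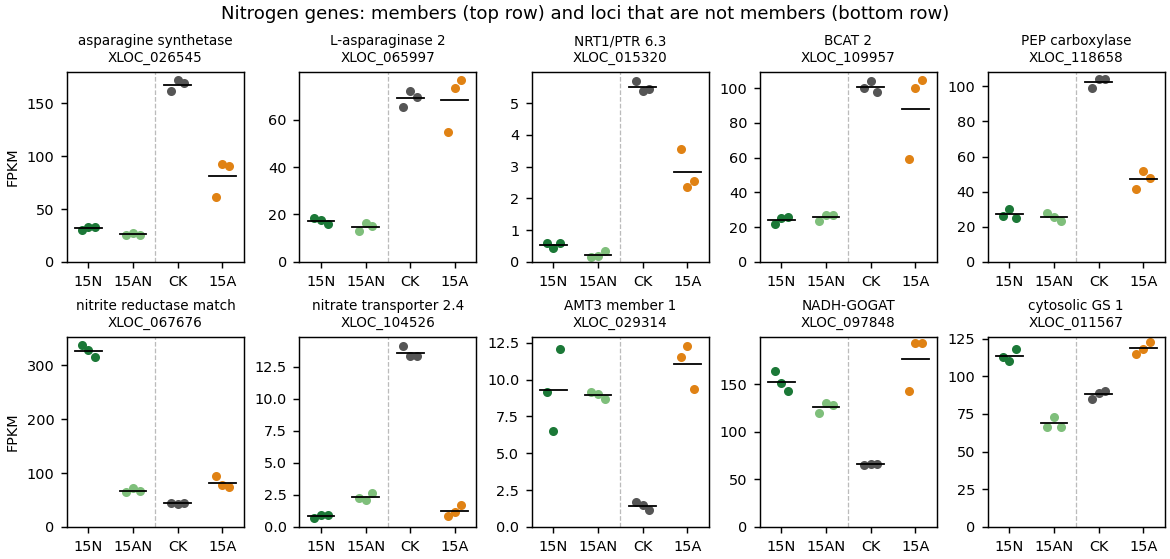
FPKM of 10 nitrogen genes in each library (points) with the group mean (line), for 15N and 15AN to the left of the dashed line and CK and 15A to the right. The upper 5 loci, with asparagine synthetase at 25.5 to 32.8 FPKM with nitrate and 61 to 172 FPKM without, do not overlap between the sides, whereas in the lower 5 one group stands apart from the other 3 or the ranges overlap.

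Of 25 tested loci in the list of nitrate uptake and transport, 0 were called higher and 1 lower in limma (4% lower, compared with 2.36% of all loci, and 2 and 12 loci, or 8% and 48%, at an unadjusted p under 0.05). Without regard to the fold threshold 3 of them (12%) lay wholly lower, compared with 3.85% of all loci. The called locus is NRT1/PTR family 6.3, XLOC_015320 on contig C4959071 (58046 to 62186, minus strand), whose Arabidopsis counterpart is a nitrate transporter and nitrate sensor. It was low throughout, with 0.147 to 0.579 FPKM (median 0.38) with nitrate and 2.37 to 5.69 FPKM (median 4.46) without, and was chosen after its values were seen. The sides did not overlap, with a difference of -1.86 ± 0.20 (SE, limma adjusted p = 0.00017), which was -0.75 and under the fold threshold with a pseudocount of 5. In 15N against CK, 10 of the 25 loci (40%) were called lower and 0 higher, compared with 7.64% and 6.85% of all loci, and in 15AN against 15A 1 (4%) was called in each direction, compared with 4.64% lower and 3.18% higher. The high affinity nitrate transporter 2.4, XLOC_104526, also chosen after its values were seen, shows this pattern with 0.844 ± 0.128 FPKM in 15N and 13.6 ± 0.458 FPKM in CK, but 2.32 ± 0.296 FPKM in 15AN and 1.24 ± 0.407 FPKM in 15A (SD, n = 3 each), and its interaction was 3.56 (limma adjusted p = 7e-07).

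Of the 8 tested loci for nitrate and nitrite reduction 0 were called in limma, with 3 higher and 2 lower (37.5% and 25%) at an unadjusted p under 0.05. With 3.54% of all loci called, 0 of 8 does not set the list apart. The most abundant of them, XLOC_067676, matches nitrite reductase in the nucleotide search and a fucosyltransferase in the protein search, so that 2 genes may be merged in it. It averaged 327 ± 11.3 FPKM in 15N and 43.8 ± 1.43 FPKM in CK, and 67.5 ± 4.39 FPKM in 15AN and 82.4 ± 11.1 FPKM in 15A (SD, n = 3 each). 15N alone stood above all other libraries. The interaction was -3.15 (limma adjusted p = 6.6e-08). Nitrate over both ammonium levels gave 1.30 with a limma adjusted p of 0.09 in the additive fit, which leaves the interaction in its residual. A mean contrast in the limma model of the 4 groups gave 1.3 with an adjusted p of 6.4e-07.

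Genes of glutamine and glutamate synthesis also differed between roots without and with ammonium. Cytosolic glutamine synthetase XLOC_011567 had 113 ± 3.81 FPKM in 15N and 88 ± 2.72 FPKM in CK, but 68.7 ± 3.87 FPKM in 15AN and 119 ± 4.08 FPKM in 15A (SD, n = 3 each). NADH-dependent glutamate synthase XLOC_097848 averaged 153 and 65.9 FPKM in 15N and CK, and 126 and 177 FPKM in 15AN and 15A. For an ammonium transporter of the AMT3 type, XLOC_029314, named after its values were seen, the means were 9.25 FPKM in 15N and 1.44 FPKM in CK, and 8.95 FPKM in 15AN and 11 FPKM in 15A. CK is the low group of the last 2, and for all 3 loci nitrate was not called (limma adjusted p = 0.47, 0.39, and 0.13). In the list of nitrate signalling, with 19 tested loci, 0 were called higher and 1 lower in limma (5.26% lower, compared with 2.36% of all loci, and 1 and 9 loci, or 5.26% and 47.4%, at an unadjusted p under 0.05). The BTB/POZ and TAZ domain protein XLOC_009648 had 86 ± 0.953 FPKM in 15N and 107 ± 4.08 FPKM in CK, and 105 ± 5 FPKM in 15AN and 272 ± 74.4 FPKM in 15A.

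In carbon metabolism the named enzymes went both ways. Phosphoenolpyruvate carboxylase XLOC_118658, which makes oxaloacetate and so refills the citrate cycle, had 23.2 to 30 FPKM (median 26) with nitrate and 41.3 to 104 FPKM (median 75.4) without. The sides were apart, with -1.37 ± 0.18 (SE, limma adjusted p = 0.00055), and the loss was larger in 15N against CK (-1.89) than in 15AN against 15A (-0.85, interaction 1.04, limma adjusted p = 0.00021). Cytosolic aconitate hydratase XLOC_033887, which converts citrate to isocitrate, had 7.27 to 18.8 FPKM (median 12.2) with nitrate and 3.96 to 5.7 FPKM (median 4.89) without, a difference of 1.16 ± 0.14 (SE, limma adjusted p = 0.00031), or 0.80 with a pseudocount of 5. Of the 99 tested loci of the citrate cycle and organic acid list 1 was called higher and 2 lower (1.01% and 2.02%), near the 1.18% and 2.36% of all loci.

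The 8 loci described as ATP-citrate lyase, which makes acetyl-CoA from citrate in the cytosol, gave 0 calls in limma (0 higher and 2 lower, or 25% lower, at an unadjusted p under 0.05), and 8 loci at the 3.54% of all loci would give few. The most abundant, XLOC_122868, had 112 to 127 FPKM (median 121) with nitrate and 95.5 to 146 FPKM (median 140) without, so the sides overlapped. XLOC_057761, listed as a hypothetical protein and matched by the study to the Arabidopsis subunit gene ACLA-3, is one of the 113 higher loci. It had 371 to 423 FPKM (median 399) in the libraries with nitrate and 150 to 243 FPKM (median 176) in those without. All 6 values with nitrate were higher, by 1.13 ± 0.11 (SE, limma adjusted p = 9.9e-05), with 1.27 in 15N against CK and 0.99 in 15AN against 15A.

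Sugar transport and storage had 104 tested loci, with 0 called higher and 4 lower in limma (3.85% lower, compared with 2.36% of all loci, and 9 and 28 loci, or 8.65% and 26.9%, at an unadjusted p under 0.05). Without regard to the fold threshold 14 of them (13.5%) lay wholly lower and 0 wholly higher, compared with 3.85% and 2.7% of all loci. The sugar transporter ERD6-like 16, XLOC_118139, had 26.3 to 54.8 FPKM (median 39.2) with nitrate and 72 to 209 FPKM (median 182) without. Its lowest value without nitrate was 15A replicate 1, and the difference was -2.01 ± 0.30 (SE, limma adjusted p = 0.0014). SWEET1-like XLOC_140612, of a family that moves sugars across membranes in both directions, averaged 1.18 FPKM in 15N and 2.78 FPKM in CK, and 1.65 FPKM in 15AN and 12.3 FPKM in 15A, and its difference of -1.55 became -0.85 with a pseudocount of 5.

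**Figure D3:**
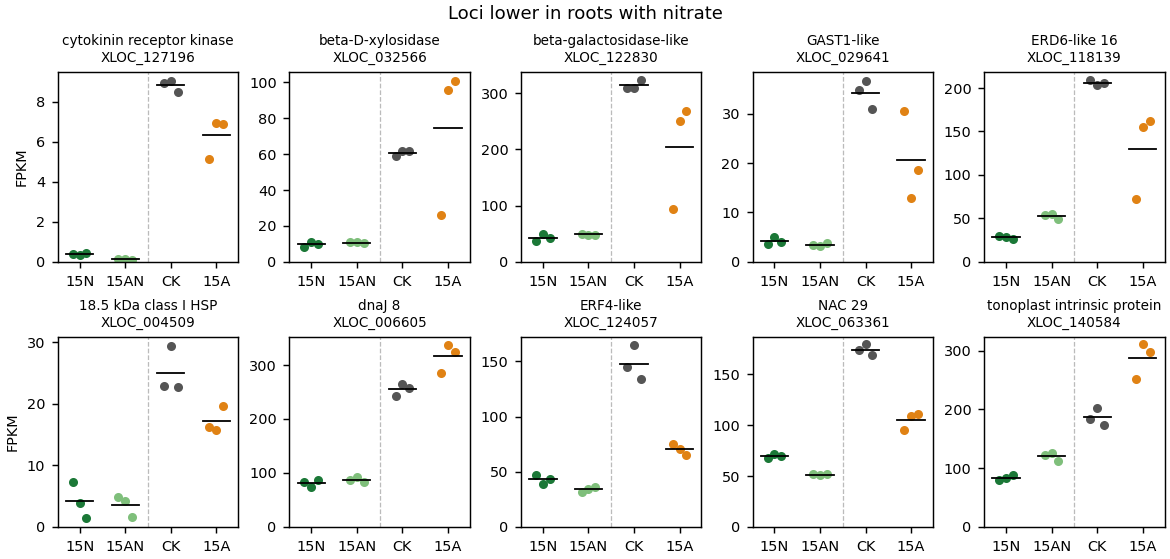
FPKM of 10 of the 305 lower loci in each library (points) with the group mean (line), 15N and 15AN left of the dashed line and CK and 15A right of it. At each locus the 6 values on the left lie below the 6 on the right. The first point of 15A is its replicate 1, which is the lowest of the 6 at the beta-D-xylosidase (26.1 FPKM, beside 96 FPKM or more in the other 2).

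Cell wall genes called for nitrate over both ammonium levels were mostly lower. The list of cell wall loosening and growth had 148 tested loci, of which 1 was called higher and 13 lower (0.676% and 8.78%, compared with 1.18% and 2.36% of all loci). Of the 13 lower loci 10 had no overlap (6.76% of the list, compared with 1.35% of all loci), where over all loci 305 of the 533 called lower had none. At an unadjusted p under 0.05 in limma, 15 were higher and 49 lower (10.1% and 33.1%). In 15N against CK 27 were called higher and 40 lower (18.2% and 27%, compared with 6.85% and 7.64% of all loci). In 15AN against 15A 6 were called higher and 21 lower (4.05% and 14.2%, compared with 3.18% and 4.64%). The list sum was 18800 to 20500 FPKM in 15N and 9050 to 10000 in CK. It was 13700 to 14700 in 15AN and 18900 to 24800 in 15A. A xyloglucan endotransglucosylase/hydrolase, XLOC_067889, which cuts and rejoins xyloglucan, had 0.8 to 1.24 FPKM (median 1.13) with nitrate and 5.64 to 9.59 FPKM (median 6.64) without, a difference of -1.98 ± 0.15 (SE, limma adjusted p = 1.5e-05). A pectinesterase inhibitor, XLOC_025639, fell by 2.29 on the log2 scale (limma adjusted p = 7e-05). Cellulose synthase-like G3, XLOC_034354, averaged 1.23 FPKM in 15N and 20.9 FPKM in CK, and 1.2 FPKM in 15AN and 3.95 FPKM in 15A, and its interaction was 2.19 (limma adjusted p = 0.00063).

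Some glycosidases that trim wall polymers were lower too. In a list drawn up after the values were seen, 0 of 18 tested beta-galactosidases and beta-xylosidases were called higher and 4 lower (22.2% lower, compared with 2.36% of all loci, and 1 and 5 loci, or 5.56% and 27.8%, at an unadjusted p under 0.05 in limma). Beta-D-xylosidase XLOC_032566 had 8.37 to 11.3 FPKM (median 10.6) with nitrate and at least 26.1 FPKM (median 61.5) without, with -2.49 ± 0.27 (SE, limma adjusted p = 0.00021). The beta-galactosidases XLOC_122830, XLOC_117660, and XLOC_117335 fell by 2.38, 2.11, and 1.61 (limma adjusted p = 2e-04, 6.8e-06, and 0.0014). The 4 loci were called without 15A replicate 1 as well.

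**Figure D4:**
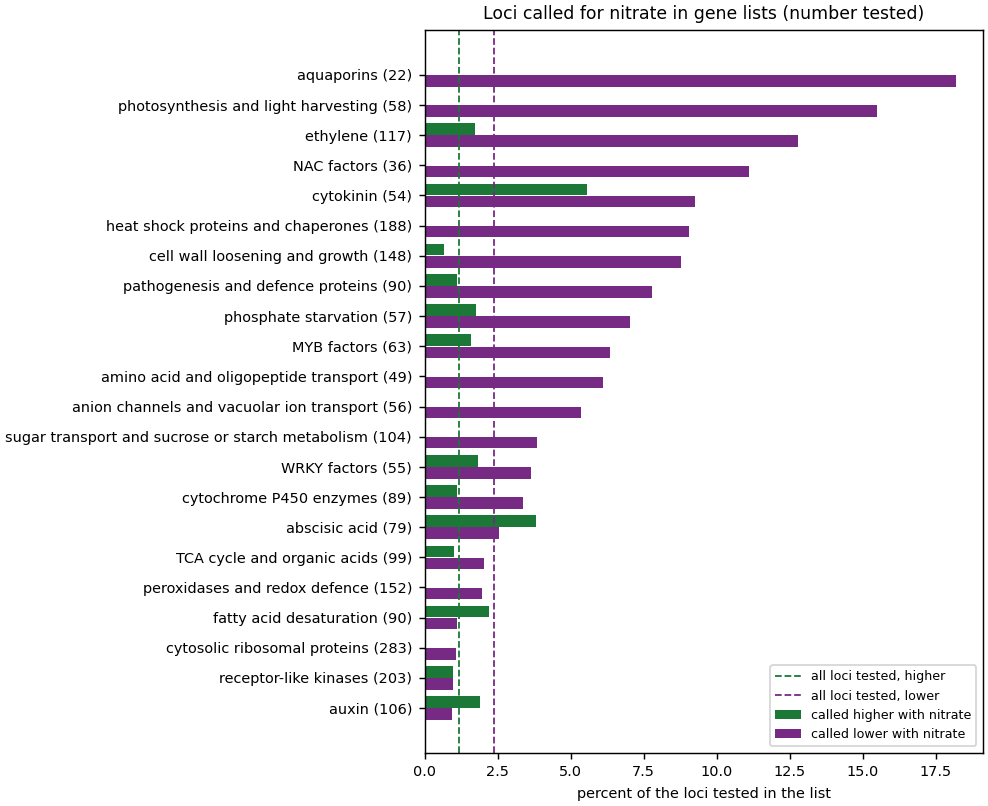
Percent of the tested loci of each gene list called higher (green bars) or lower (purple bars) with nitrate, with the number tested in brackets, and the percent over all loci tested as dashed lines (1.18% higher, 2.36% lower). Shown are the lists with at least 20 tested loci and at least 3 calls. Aquaporins, photosynthesis, and ethylene have the longest purple bars (18.2%, 15.5%, and 12.8%).

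Heat shock proteins and chaperones, which keep proteins folded, had 188 tested loci, with 0 called higher and 17 lower in limma (9.04% lower, compared with 2.36% of all loci, and 22 and 51 loci, or 11.7% and 27.1%, at an unadjusted p under 0.05), although the median of the list was -0.09. Of the 17 lower loci 11 had no overlap (5.85% of the list, compared with 1.35% of all loci). Over all loci, 305 of the 533 called lower had none. The 11 are small heat shock proteins, HSP70 and HSP101 proteins, a dnaJ cochaperone, and heat stress factors. The dnaJ 8 protein XLOC_006605 was the most abundant of them, with 73.4 to 92.3 FPKM (median 85) with nitrate and 243 to 338 FPKM (median 276) without. The sides were far apart, and the difference was -1.74 ± 0.08 (SE, limma adjusted p = 8.4e-07), with -1.64 in 15N against CK and -1.84 in 15AN against 15A. HSP101, XLOC_016573, a disaggregase, fell by 1.21 (limma adjusted p = 0.00029), or by 0.88 with a pseudocount of 5. The class I small heat shock proteins XLOC_004509 and XLOC_004508 fell by 2.27 and 1.94, but the table gives both the same coordinates on contig C4873331 (47 to 1246). Heat stress transcription factor B-2b, XLOC_093701 on scaffold29685 (2605 to 5047, plus strand), was listed at 0 in 5 of the 6 libraries with nitrate and at 0.0636 FPKM in the sixth, against 9.73 to 21.6 FPKM without. Summed over the 5 loci above 0 whose description holds that name, the factor had 104 to 107 FPKM in 15N and 143 to 154 FPKM in 15AN, against 154 to 156 FPKM in CK and 137 to 166 FPKM in 15A.

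Ethylene genes called for nitrate over both ammonium levels were mostly lower. Of 117 tested loci 2 were called higher and 15 lower (1.71% and 12.8%, compared with 1.18% and 2.36% of all loci). At an unadjusted p under 0.05 in limma, 21 were higher and 33 lower (17.9% and 28.2%). In 15N against CK 13 were called higher and 21 lower (11.1% and 17.9%, compared with 6.85% and 7.64% of all loci). In 15AN against 15A 2 were called higher and 12 lower (1.71% and 10.3%, compared with 3.18% and 4.64%). Among the loci called for nitrate over both levels, 9 lower ones and 1 higher one had no overlap (7.69% and 0.855% of the list, compared with 1.35% and 0.5% of all loci). Over all loci, 305 of the 533 called lower had none. Most of the loci without overlap in this list are ethylene response factors (ERFs), DNA-binding proteins named after the hormone. The ERF4-like locus XLOC_124057 had 31.5 to 47.4 FPKM (median 37.8) with nitrate and 65.5 to 165 FPKM (median 105) without, with CK above 15A, and fell by 1.38 ± 0.13 (SE, limma adjusted p = 8.2e-05). It shares its coordinates on scaffold5939 with the undescribed lower locus XLOC_124055, so their reads may be shared. A pair of loci with close names went opposite ways, as ERF 2.1 (XLOC_107394) fell by 1.48 while ERF 2.2 (XLOC_065625) rose by 1.52 (limma adjusted p = 0.0078 and 0.0026). Both differences were larger without ammonium, at -2.39 and 2.30, than with it, at -0.57 and 0.74. ACC oxidase 3, XLOC_058874, which forms ethylene, had 132 to 185 FPKM (median 166) with nitrate and 190 to 540 FPKM (median 410) without, and was one of the called loci with the narrowest gap. A second ACC oxidase, XLOC_075429, lay just outside, with 2.49 to 7.66 FPKM with nitrate and 7.58 to 36.7 FPKM without.

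Other transcription factors and hormone genes followed. Among NAC factors 0 of 36 were called higher and 4 lower in limma (11.1% lower, compared with 2.36% of all loci, and 5 and 8 loci, or 13.9% and 22.2%, at an unadjusted p under 0.05). The most abundant of those without overlap was NAC29, XLOC_063361, a relative of an Arabidopsis promoter of leaf senescence, with 50.7 to 71.6 FPKM (median 59.5) with nitrate and 95.4 to 180 FPKM (median 140) without (-1.17 ± 0.08, SE, limma adjusted p = 7.6e-06). The MYB108 loci XLOC_082821 and XLOC_082820 fell by 1.21 and 1.02 and share coordinates on scaffold2560 (62604 to 71099), and the second was under the fold threshold without 15N replicate 3 (-0.95), CK replicate 2 (-0.98), or CK replicate 3 (-0.99). XLOC_007117, a WRKY factor (WRKY23 by the protein match and WRKY48 by the nucleotide match), rose by 1.2 (limma adjusted p = 0.00091), or by 0.97 with a pseudocount of 5, under the fold threshold. Of 55 tested WRKY loci 1 was called higher and 2 lower in limma (1.82% and 3.64%, compared with 1.18% and 2.36% of all loci). At an unadjusted p under 0.05, 7 were higher and 17 lower (12.7% and 30.9%).

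A histidine kinase described as a cytokinin receptor, XLOC_127196 on scaffold6504 (137653 to 143964, plus strand), was close to 0 with nitrate, with 0.108 to 0.423 FPKM (median 0.259) with nitrate and 5.14 to 9.04 FPKM (median 7.72) without. The difference was -2.75 ± 0.14 (SE, limma adjusted p = 2.4e-06), at a low level. In the cytokinin list, 3 of 54 tested loci were called higher and 5 lower (5.56% and 9.26%, compared with 1.18% and 2.36% of all loci), and a two-component response regulator, XLOC_091658, rose by 1.35 (limma adjusted p = 0.0059), more in 15AN against 15A (2.07) than in 15N against CK (0.63), and was under the fold threshold with a pseudocount of 5 (0.94).

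Genes of abscisic acid went both ways. The receptor PYL4-like XLOC_071799 had 74.3 to 105 FPKM (median 97) with nitrate and 28.7 to 41.2 FPKM (median 32.7) without, and rose by 1.47 ± 0.09 (SE, limma adjusted p = 6.8e-06), with 1.43 in 15N against CK and 1.5 in 15AN against 15A. Zeaxanthin epoxidase XLOC_142625, an enzyme early in the synthesis of the hormone, fell by 2 (limma adjusted p = 0.00058). A protein phosphatase 2C, XLOC_026537, of the enzyme class whose members include co-receptors of the hormone, averaged 2.81 FPKM in 15N and 68.3 FPKM in CK, and 3.24 FPKM in 15AN and 6.41 FPKM in 15A. CK stood far above the other groups, the difference was -2.49, and the interaction was 3.38 (limma adjusted p = 3.1e-07). GAST1-like XLOC_029641, of a family of small peptides induced by gibberellin, fell by 2.47 (limma adjusted p = 1.8e-05).

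Some other membrane transport genes were lower with nitrate. Aquaporins had 22 tested loci, with 0 called higher and 4 lower in limma (18.2% lower, compared with 2.36% of all loci, and 0 and 11 loci, or 50% lower, at an unadjusted p under 0.05) and a list median of -0.65. Of the 4 lower loci 2 had no overlap, compared with 305 of the 533 called lower over all loci. In 15N against CK 12 of the list (54.5%) were called lower and 0 higher, compared with 7.64% and 6.85% of all loci. The list median there was -1.14. In 15AN against 15A 1 (4.55%) was called in each direction, compared with 4.64% lower and 3.18% higher, and the list median was -0.07. A tonoplast intrinsic protein, XLOC_140584, a water channel of the vacuole membrane, had 79.7 to 126 FPKM (median 100) with nitrate and 173 to 311 FPKM (median 227) without (-1.19 ± 0.08, SE, limma adjusted p = 9.4e-06). The phosphate transporter 1-7, XLOC_054682, averaged 40.5 FPKM in 15N and 60.1 FPKM in CK, and 13.6 FPKM in 15AN and 55.3 FPKM in 15A, and its loss was larger with ammonium (interaction -1.38, limma adjusted p = 7.5e-05). An amino acid transporter, XLOC_118801, fell by 1.12 (limma adjusted p = 9.9e-05), or by 0.92 with a pseudocount of 5, under the fold threshold.

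Photosynthesis genes, which mark green tissue, were measurable in these roots. Of 58 tested loci 0 were called higher and 9 lower in limma (15.5% lower, compared with 2.36% of all loci, and 3 and 24 loci, or 5.17% and 41.4%, at an unadjusted p under 0.05), with a median of -0.65, and without 15A replicate 1 the lower calls were 5. Of the 9 lower loci 2 had no overlap, compared with 305 of the 533 called lower over all loci. Without regard to the fold threshold 3 of the list (5.17%) lay wholly lower, compared with 3.85% of all loci. In 15N against CK 3 were called higher and 25 lower (5.17% and 43.1%, compared with 6.85% and 7.64% of all loci), with a median of -0.9. In 15AN against 15A 1 was called higher and 5 lower (1.72% and 8.62%, compared with 3.18% and 4.64%), with a median of -0.31. The summed level of the list was 1370 to 1450 FPKM in 15N and 1210 to 1300 FPKM in 15AN, against 1900 to 2060 FPKM in CK and 1340 to 2910 FPKM in 15A. The small subunit of Rubisco, XLOC_139090, had 14.8 to 23.7 FPKM (median 19.7) with nitrate and 55.7 to 214 FPKM (median 60.4) without, where 214 FPKM is 15A replicate 1, and the light-harvesting protein CP26, XLOC_010734, had 0.87 to 2.35 FPKM and 6.63 to 35.5 FPKM. The part of green tissue in the other losses was not tested.

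**Figure D5:**
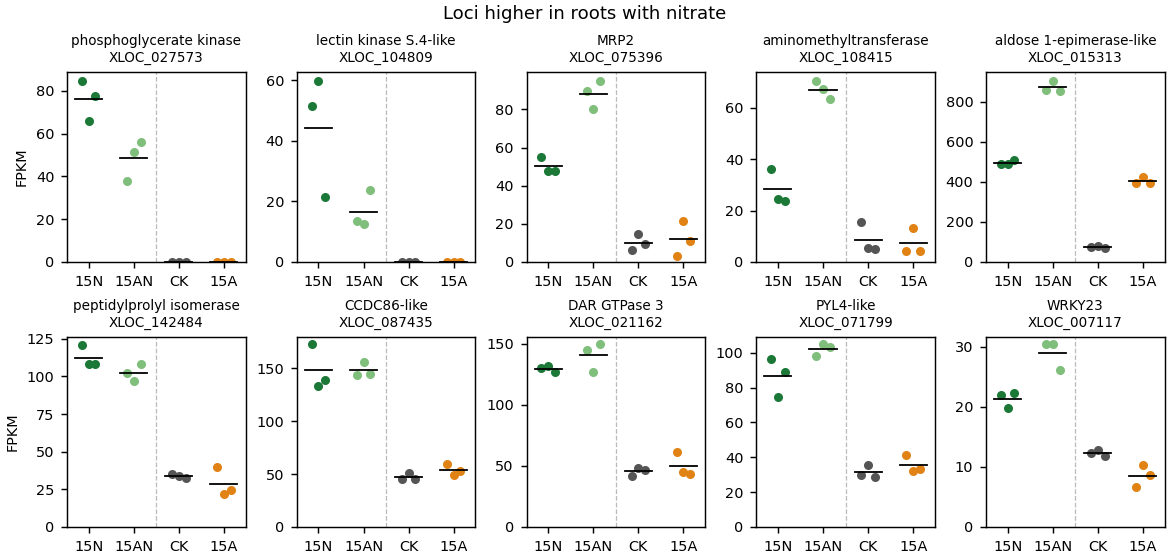
FPKM of 10 of the 113 higher loci in each library (points) with the group mean (line), 15N and 15AN left of the dashed line and CK and 15A right of it. The 6 values on the left lie above the 6 on the right at each locus. The aldose 1-epimerase also differs within each side, with 497 and 873 FPKM in 15N and 15AN and 74.1 and 403 FPKM in CK and 15A.

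The named loci higher with nitrate have varied functions. Aldose 1-epimerase-like XLOC_015313, of enzymes that interconvert the ring forms of sugars, was the most abundant of the described ones, with 490 to 906 FPKM (median 682) with nitrate and 70.7 to 424 FPKM (median 236) without. The difference was 1.92 ± 0.25 (SE, limma adjusted p = 0.00065) for nitrate, and ammonium was called higher as well, with 1.62 (limma adjusted p = 0.0034). The ABC transporter MRP2, XLOC_075396, whose Arabidopsis relative pumps glutathione conjugates into the vacuole, had 47.8 to 94.9 FPKM (median 67.6) and 3.02 to 21.3 FPKM (median 10.2), a difference of 2.70 ± 0.36 (SE, limma adjusted p = 8e-04). Over the 5 loci of that name above 0, the sum was 84.4 to 93.9 FPKM in 15N and 111 to 133 FPKM in 15AN. It was 53.6 to 67.3 FPKM in CK and 44.8 to 61.8 FPKM in 15A, so the sums differed less than this locus. Gamma-glutamyltranspeptidase 3, XLOC_007962, which starts the breakdown of glutathione, rose by 1.65 (limma adjusted p = 3.3e-06).

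The next 4 loci were called both without and with ammonium. XLOC_142484, which matches a peptidylprolyl isomerase by protein and a nucleotide pyrophosphatase/phosphodiesterase by nucleotide sequence, so that its function is uncertain, had 96.8 to 121 FPKM (median 108) with nitrate and 21.8 to 39.9 FPKM (median 33.2) without (1.77 ± 0.13, SE, limma adjusted p = 1.3e-05). CCDC86-like XLOC_087435, whose yeast relative acts in ribosome assembly, had 133 to 173 FPKM (median 145) and 45 to 59.1 FPKM (median 50.1), and rose by 1.54 (limma adjusted p = 4.6e-06). DAR GTPase 3, XLOC_021162, had 127 to 150 FPKM (median 131) and 41.7 to 61.2 FPKM (median 45.9), and rose by 1.49 (limma adjusted p = 6.8e-06). DNA ligase 1-like XLOC_037638 had 25.1 to 38.4 FPKM (median 33.2) and 6.56 to 9.68 FPKM (median 7.49), and rose by 1.92 (limma adjusted p = 6e-06).

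CCDC86-like and DAR GTPase 3 are the 2 called loci of a list of 103 ribosome biogenesis and nucleolar genes that was drawn up after the values were seen. DAR GTPase 3 is described as chloroplastic, and its nucleotide match is a mitochondrial ribosome-associated GTPase, so it may not be nucleolar. The 2 called loci are 1.94% of the list, compared with 1.18% of all loci. Without regard to the fold threshold 11 loci (10.7%) lay wholly higher and 0 wholly lower, compared with 2.7% and 3.85% of all loci, and 74 of the 103 (71.8%) had a positive difference, compared with 54.3%, with a list median of 0.13. Cytosolic ribosomal proteins had 0 of 283 called higher and 3 lower in limma (1.06% lower, compared with 2.36% of all loci). At an unadjusted p under 0.05, 41 were higher and 13 lower (14.5% and 4.59%), so that neither share was above that of all loci. The amount of ribosomal RNA left in the libraries differed too, as its 25 tested loci summed to 9420 to 15500 FPKM in 15N and 3840 to 9540 FPKM in 15AN, against 5520 to 7310 FPKM in CK and 6320 to 11300 FPKM in 15A, and its part in these values was not tested. Squalene epoxidase 1, XLOC_111656, an enzyme on the way to the triterpene saponins of Panax, was higher mainly where CK is the reference, with 25.3 and 5.19 FPKM in 15N and CK and 23.9 and 20.1 FPKM in 15AN and 15A, and was called at an adjusted p of 0.018 in limma. The call was lost without the ammonium block (adjusted p = 0.066 in limma) and with a pseudocount of 5 (0.89).

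A few loci were present on one side and close to absent on the other. Of the 113 higher loci 4 were listed at 0 in all 6 libraries without nitrate and 6 of the 305 lower loci in all 6 with nitrate. A 171 nt locus described as phosphoglycerate kinase, XLOC_027573 on scaffold11631 (81366 to 81536, plus strand), had 37.9 to 84.5 FPKM (median 61.1) with nitrate and was listed at 0 in all libraries without. A 706 nt locus of the same description, XLOC_003371, had 4.79 to 10.1 FPKM and 0 to 0.995 FPKM. Summed over the 10 loci of this glycolytic enzyme, however, the level was 901 to 955 FPKM in 15N and 760 to 801 FPKM in 15AN, against 504 to 526 FPKM in CK and 790 to 1030 FPKM in 15A, so the sums of 15AN and 15A overlapped.

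Of the loci described as topless-related protein 3, a co-repressor of transcription, one was higher with nitrate and another was listed above 0 only without. XLOC_016641 had 12.9 to 14.8 FPKM (median 14.7) with nitrate and 0.368 to 3.79 FPKM (median 0.699) without. XLOC_000392, a 690 nt locus, was listed at 0 in all 6 libraries with nitrate and had 11.4 to 24.7 FPKM (median 18.3) without. Their description summed over 7 loci gave 22.6 to 25.4 FPKM in 15N and 24.8 to 26.1 FPKM in 15AN, against 35.2 to 38.3 FPKM in CK and 25.6 to 39.1 FPKM in 15A, and the sharing of reads between such copies was not tested. Receptor kinase S.4-like XLOC_104809, of the lectin type, had 12.5 to 59.6 FPKM with nitrate and no more than 0.077 FPKM without, and its 9 loci summed to 43 to 79.9 FPKM in 15N and 37.3 to 49.7 FPKM in 15AN, against 14.1 to 16.3 FPKM in CK and 21.5 to 26.3 FPKM in 15A. Among loci without any description, XLOC_109701 of 92 nt was listed at 0 with nitrate and at 46.6 to 481 FPKM without, and XLOC_137975 of 67 nt had 761 to 3650 FPKM with nitrate and 0 to 384 FPKM without.

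Loci near the limit of the choice show where it falls. Just inside, with the narrowest gap between the sides among called and described loci of at least 20 FPKM, were ACC oxidase 3, the BURP domain protein XLOC_128916 (15.8 to 31.9 FPKM with nitrate and 32.9 to 150 FPKM without), and GDP-mannose 3,5-epimerase XLOC_114777 (4.8 to 8.77 FPKM and 9.17 to 31.1 FPKM). The BURP domain protein was no longer called when the libraries were scaled to the same FPKM total (adjusted p = 0.062 in limma). Just outside were the second ACC oxidase, the salt tolerance-like protein XLOC_102285 (33.4 to 78 FPKM and 19.9 to 33.5 FPKM), and 2-alkenal reductase XLOC_126846 (88.6 to 219 FPKM and 21.3 to 89.3 FPKM).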

How the data were processed

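Total RNA of P. notoginseng roots was sequenced after removal of ribosomal RNA, in 3 libraries for each of 4 groups, which were read from the sample titles and treatment labels. The authors aligned reads to the P. notoginseng genome with TopHat2 2.0.13, assembled and merged transcripts with Cufflinks 2.2.1, scaled levels with Cuffnorm 2.2.1, and deposited them as FPKM per assembled locus. Their descriptions come from protein and nucleotide database searches. FPKM divides by length and total, so a locus can move when others take more of a library, and the read depth behind a value is not known from the table. No genome sequence was used here.

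Loci averaging 5 FPKM or more in any group were kept, 1 was added before taking log2, and limma 3.58.1 in R 4.3.3 was fitted with nitrate and ammonium as terms, empirical Bayes with trend, and two-sided p adjusted by Benjamini-Hochberg over 22592 loci. A model of the 4 groups gave 15N against CK, 15AN against 15A, and their interaction. A locus without overlap had the lowest library of one side above the highest of the other. The 46 gene lists match words in the descriptions, and 3 more were added after values were seen. The genes named are the largest changes among described loci of at least 20 FPKM on the higher side, called loci of the lists, the most abundant nitrogen genes, ATP-citrate lyase loci, the largest undescribed ones, and those nearest the limit; 19 loci were named after their values were seen, namely XLOC_000392, XLOC_016641, XLOC_003371, XLOC_015320, XLOC_104526, XLOC_144616, XLOC_048205, XLOC_143136, XLOC_057761, XLOC_016573, XLOC_029314, XLOC_065625, and others not printed. The loci and lists were chosen with earlier results of these data known. No library columns were identical. The scripts were tested on simulated data. Alternatives were the pseudocount, the filter, the scaling, the model, the threshold, the replicate block, and leaving out each library.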

Additional observations from a re-analysis of the deposited data

Results flagged for a closer look

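The loci below are those named whose nitrate difference changed with ammonium by more than 1 on the log2 scale at a limma adjusted p under 0.05. Each value is 15AN minus 15A, from which 15N minus CK is subtracted. No cause was tested.

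Among nitrogen and carbon genes, the interaction was -3.15 at the nitrite reductase-like locus XLOC_067676, 3.56 at high affinity nitrate transporter 2.4 (XLOC_104526), -2.31 at the ammonium transporter XLOC_029314, -1.67 at NADH-dependent glutamate synthase XLOC_097848, -1.15 at glutamine synthetase XLOC_011567, and -1.01 at the BTB/POZ and TAZ protein XLOC_009648. It was 1.04 at phosphoenolpyruvate carboxylase XLOC_118658, -1.05 at an ATP-citrate lyase locus (XLOC_118902), 1.78 at aminomethyltransferase XLOC_074711, 1.79 at methylcrotonoyl-CoA carboxylase XLOC_137347, and -1.19 at phosphoglycerate kinase XLOC_003371.

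Among sugar, wall, and transport genes it was -1.62 at aldose 1-epimerase XLOC_015313, 1.63 at ERD6-like 16 (XLOC_118139), -1.52 at SWEET1-like XLOC_140612, -1.38 at phosphate transporter 1-7 (XLOC_054682), -1.06 at the pectinesterase inhibitor XLOC_025639, 2.19 at cellulose synthase-like G3 (XLOC_034354), and 2.78 at the BURP domain protein XLOC_128916. Among hormone genes it was 1.82 at ERF 2.1 (XLOC_107394), -1.57 at ERF 2.2 (XLOC_065625), 1.01 at ACC oxidase XLOC_075429, 1.44 at the response regulator XLOC_091658, -1.65 at zeaxanthin epoxidase XLOC_142625, and 3.38 at the protein phosphatase 2C XLOC_026537. Further values were 1.19 at small heat shock protein XLOC_004508, -1.84 at squalene epoxidase XLOC_111656, -1.29 at DA1-related 2 (XLOC_061123), 1.77 at Drm3-like XLOC_143136, and 4.08 at the undescribed XLOC_054729. At XLOC_054729 the mean was 0.822 FPKM in 15N and 58.2 FPKM in CK, and 1.09 FPKM in 15AN and 2.97 FPKM in 15A.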

How the results depend on the processing

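The 71 called genes named kept their direction under each alternative run, and 1746 of their 1766 values kept the call. With a pseudocount of 5 in place of 1, the calls became 128 higher and 237 lower, those without overlap 60 and 141, and the interaction calls among loci called for nitrate 150, and 199 of the 418 loci (47.6%) were kept. That setting lowers the fold change of low loci by construction, and took 13 named genes under the threshold: XLOC_007117 (0.97), XLOC_111656 (0.89), XLOC_033887 (0.80), XLOC_091658 (0.94), XLOC_016573 (-0.88), XLOC_082820 (-0.91), XLOC_015320 (-0.75), XLOC_118801 (-0.92), XLOC_144616 (-0.69), XLOC_048205 (-0.87), XLOC_137347 (-0.95), XLOC_140612 (-0.85), and XLOC_102285 (1, from 1.11). Scaling all libraries to the same FPKM total kept 306 loci (73.2%). It moved the share with the same direction in the other comparison to 28.1% for loci lower in 15N than in CK and 23.3% for loci higher in 15AN than in 15A. The shares of all loci under that scaling were not computed, and the cause was not tested. A mean contrast in the model of the 4 groups called 461 loci higher. It also called XLOC_067676 (1.3) and XLOC_104526 (-1.2), which the additive fit did not call. An adjusted p under 0.01 left 147 higher and 351 lower. Leaving out 1 library at a time gave 217 to 322 called higher, 415 to 609 called lower, 653 to 1255 wholly higher (1255 without 15A replicate 1), 915 to 1210 wholly lower, 117 to 159 and 293 to 402 both called and without overlap, and 219 to 434 interaction calls (219, 221, and 226 without a CK library). Fewer libraries make separation easier. The same-numbered libraries did not deviate together (r from -0.0998 to 0.0505), and with a replicate block the calls were 208 higher and 442 lower, and 109 and 299 without overlap. The depth behind low and short loci is not shown by FPKM.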
